A study of Homo sapiens with 12 samples.

Results

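RNA recovered with tagged wild-type (WT) RPL12 was compared with the RNA of the 80S fraction from which it was pulled down. The comparison used 4 of the 12 libraries of the series, chosen by their titles: IP libraries 1 and 2 of the WT line, and input libraries 1 and 2 of the same line. All cells were HEK293, an established human embryonic kidney line, grown in DMEM with serum. The WT line stably expressed FLAG/HA-tagged RPL12 of unchanged sequence from an integrated vector, and 2 other lines expressed the tagged S38A form (serine to alanine) or S38D form (serine to aspartate). For each WT input library, RNA was taken from a small volume of the 80S material collected from a sucrose gradient. For each WT IP library, the remainder was incubated with the anti-FLAG M2 antibody and the bound RNA was extracted, with cycloheximide present, which holds ribosomes on mRNA. The S38A and S38D lines have the same 2 IP and 2 input libraries each and are used here only to see what holds beyond the WT line. The tagged form was overexpressed and the labels describe no removal of the cells' own RPL12. They name 1 line for each form, grown from hygromycin-resistant monoclonal colonies. An IP from untagged cells is not among the 12 libraries, so recovery through RPL12 and recovery without it cannot be told apart.

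RPL12, also called uL11, belongs to the large subunit of the ribosome. Together with the acidic P proteins it forms the stalk of the ribosome, where the GTPase factors of translation dock during elongation. The 80S fraction of a gradient holds single ribosomes, many of them on an mRNA. The series concerns the phosphorylation of this protein at serine 38 and translation in mitosis.

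The files give genes as Ensembl identifiers without names, and 0 of 57820 identifiers could be matched to a symbol. Genes are therefore named by identifier, 2 in each direction, and neither RPL12 itself nor the markers of the cell line were analysed here. No sequence is shown for the same reason.

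Both WT IP libraries were shallower than their inputs, and the first was the shallowest of the 12. IP libraries 1 and 2 held 3186164 and 5048911 gene counts, against 8494734 and 7434431 in inputs 1 and 2. The second IP library was thus 1.58 times as deep as the first. Counts were more concentrated on few genes in IP: the 100 most counted genes took 15.9% and 16.8% of gene counts in the IP libraries, against 10.6% and 11.6% in the inputs. In IP, 1263 and 1462 genes were enough to reach 50% of the gene counts, against 2111 and 2001 genes in input. Spike-in RNA (ERCC), which was left out of all gene values, took 5.43% and 2.57% of counts in IP, against 0.116% and 0.484% in input. How much spike-in the IP RNA received is not stated in the labels, and no absolute yield was derived from it.

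**Figure D1:**
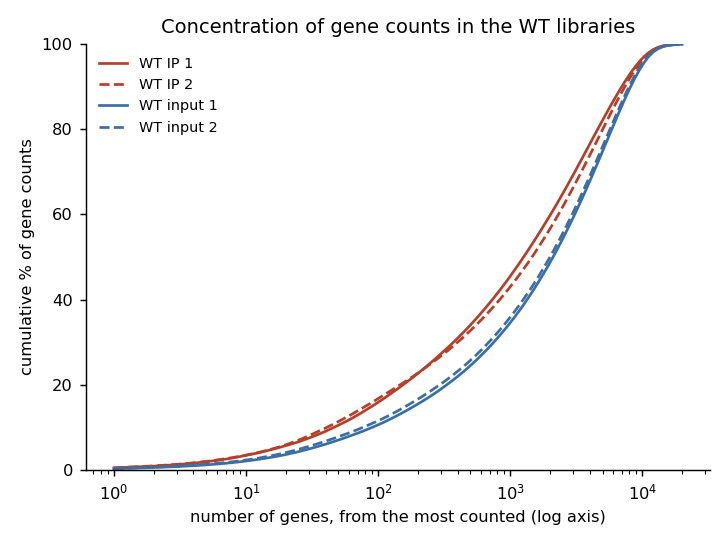
Cumulative share of gene counts (y axis, percent) over genes ordered from the most counted (x axis, log scale) in the 4 WT libraries, with IP in red, input in blue, library 1 as a full line and library 2 as a dashed line. Both IP curves lie above both input curves over the most counted genes, with 15.9% and 16.8% of counts in the first 100 genes in IP, against 10.6% and 11.6% in input.

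The 2 WT IP libraries differed from each other more than any other pair of replicates. Among 11693 genes with a mean of at least 10 counts per 1e+06 gene counts (CPM), 613 (5.24%) differed at least 2-fold between WT IP 1 and WT IP 2, against 113 (0.966%) between the WT inputs. In the other 4 groups the number lay between 119 and 220. Of the 613 genes, 473 were higher in IP 1 and 140 in IP 2. When all libraries were thinned to the depth of the smallest, 615 genes still differed 2-fold between the WT IP libraries and 138 between the WT inputs, so the difference was as large at equal depth. The correlation of log2 CPM across 16920 genes was 0.957 between the IP libraries and 0.979 between the inputs. Results are therefore given for each pair of IP and same-numbered input as well as for both.

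Over both pairs, 976 of the 16920 genes tested were higher in WT IP and 927 were lower (edgeR quasi-likelihood test, Benjamini-Hochberg adjusted p under 0.05), which is 5.77% and 5.48% of genes. Together, 11.2% of genes were called. The median log2 change was 0.96 among genes called higher and -0.89 among genes called lower, and 444 and 308 of them changed at least 2-fold. Genes called higher made up 26.7% and 21.6% of gene counts in IP libraries 1 and 2, against 14.3% and 14.4% in inputs 1 and 2. Genes called lower made up 2.61% and 3.43% of counts in IP, against 6.22% and 6.65% in input. The call was fitted on all 12 libraries, which share 1 estimate of spread. The WT IP libraries differed more than the replicates of any other group, so that estimate may be too small for this contrast. With voom and sample quality weights the count called was 597, and with the 4 WT libraries alone it was 0. The main fit left out the pairing of each IP with the input of its 80S fraction. The SE and p-values of the named genes below come from the same unpaired fit. With the 80S fraction as a replicate block, edgeR called 2366 genes higher and 2452 lower (14.0% and 14.5%), and 1902 of the 1903 unblocked calls were among them. The count depended on single libraries: it was 344 without IP 1, 2869 without IP 2, 212 without input 1 and 0 without input 2. It also depended on scaling, with 484 genes higher and 2444 lower (2.86% and 14.4%) when only total counts were used, a setting that moved the median log2 change of all genes to -0.30 from -0.04.

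Pair 1 showed the larger changes. A log2 ratio of IP over input was taken within each pair, and 1330 genes were at least 2-fold higher in pair 1, against 647 in pair 2 (7.86% and 3.82% of genes). At least 2-fold lower were 1603 genes in pair 1 and 802 in pair 2 (9.47% and 4.74%). In both pairs, 175 genes were at least 2-fold higher, which is 13.2% of those of pair 1 and 27.0% of those of pair 2. The 351 genes at least 2-fold lower in both made up 21.9% and 43.8%. Opposite 2-fold changes were few: 18 genes were higher in pair 1 and lower in pair 2, and 31 the other way round. Of the 976 genes called higher, all 976 had a positive ratio in both pairs, which a call on these same libraries nearly fixes. Over all genes, 69.2% had the same sign in both pairs. The median log2 ratio of the 976 genes was 1.20 in pair 1 and 0.68 in pair 2, and 765 had the larger ratio in pair 1. The 927 genes called lower were more alike, with medians of -0.96 and -0.83, and 592 were further down in pair 1. At equal depth 1357 and 734 genes were at least 2-fold higher in pairs 1 and 2, so the gap between the pairs remained.

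**Figure D2:**
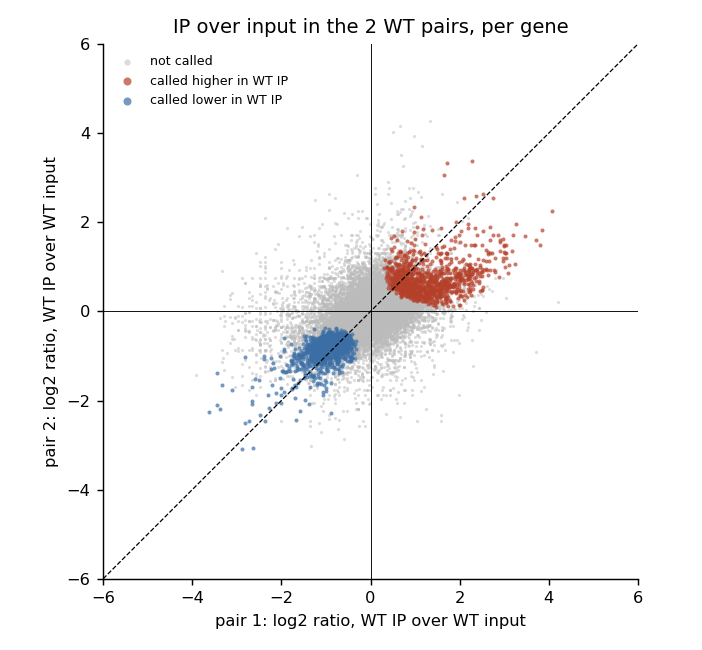
Log2 ratio of WT IP over WT input per gene in pair 1 (x axis) and pair 2 (y axis), for 16920 genes; red points were called higher in IP, blue points lower, and grey points were not called, and the dashed line marks equal ratios. Most red points lie below the dashed line, since 765 of 976 genes called higher had the larger ratio in pair 1, while the 927 blue points lie closer to it.

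The genes with the 2 largest increases and the 2 largest decreases are named, among called genes with a mean of at least 5 CPM in the WT libraries and no overlap between IP and input. ENSG00000159450.8 had 56 and 28 counts in WT IP libraries 1 and 2, against 9 and 8 in the inputs, which is 21.3 and 6.07 CPM in IP, against 0.994 and 1.05 CPM in input. Both IP libraries were above both inputs, and IP 1 stood well above IP 2. It was 12.8-fold higher in IP (log2 change 3.67, SE 0.67, edgeR adjusted p = 0.00891), with a log2 ratio of 4.07 in pair 1 and 2.25 in pair 2. Without IP 1 the log2 change was 2.57 and did not pass (edgeR adjusted p = 0.0679), and it did not pass without input 1 or input 2 either (adjusted p = 0.0633 and 0.0965).

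ENSG00000138778.7, one of the G2M cell cycle markers described below, had 325 and 150 counts in WT IP, against 75 and 68 in WT input. These correspond to 124 and 32.5 CPM in IP, against 8.29 and 8.90 CPM in input, so the inputs were close together and the IP libraries far apart, though without overlap. The gene was 8.89-fold higher in IP (log2 change 3.15, SE 0.46, edgeR adjusted p = 0.00631), and its log2 ratio was 3.85 in pair 1 and 1.84 in pair 2. It passed without IP 1 with a log2 change of 1.94. Without input 2, where no gene passed, its log2 change was 3.20.

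Both named genes that fell did so by similar amounts in the 2 pairs. ENSG00000267152.1 had 9 and 21 counts in WT IP, against 162 and 133 in WT input, or 3.42 and 4.55 CPM in IP, against 17.9 and 17.4 CPM in input. It fell by 2.11 on the log2 scale (SE 0.32, edgeR adjusted p = 0.007), with ratios of -2.29 and -1.87 in pairs 1 and 2. Without input 2 it did not pass, with a log2 change of -2.13. ENSG00000259834.1 had 10 and 22 counts in IP, against 168 and 120 in input, or 3.80 and 4.77 CPM in IP, against 18.6 and 15.7 CPM in input. It fell by 1.97 (SE 0.40, edgeR adjusted p = 0.0127), with ratios of -2.20 and -1.66. That call was lost in voom (adjusted p = 0.0878) and without IP 1, input 1 or input 2 (edgeR adjusted p = 0.0833, 0.0633 and 0.0833). With the 4 WT libraries alone none of the 4 named genes passed (edgeR adjusted p = 0.0766 each).

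**Figure D3:**
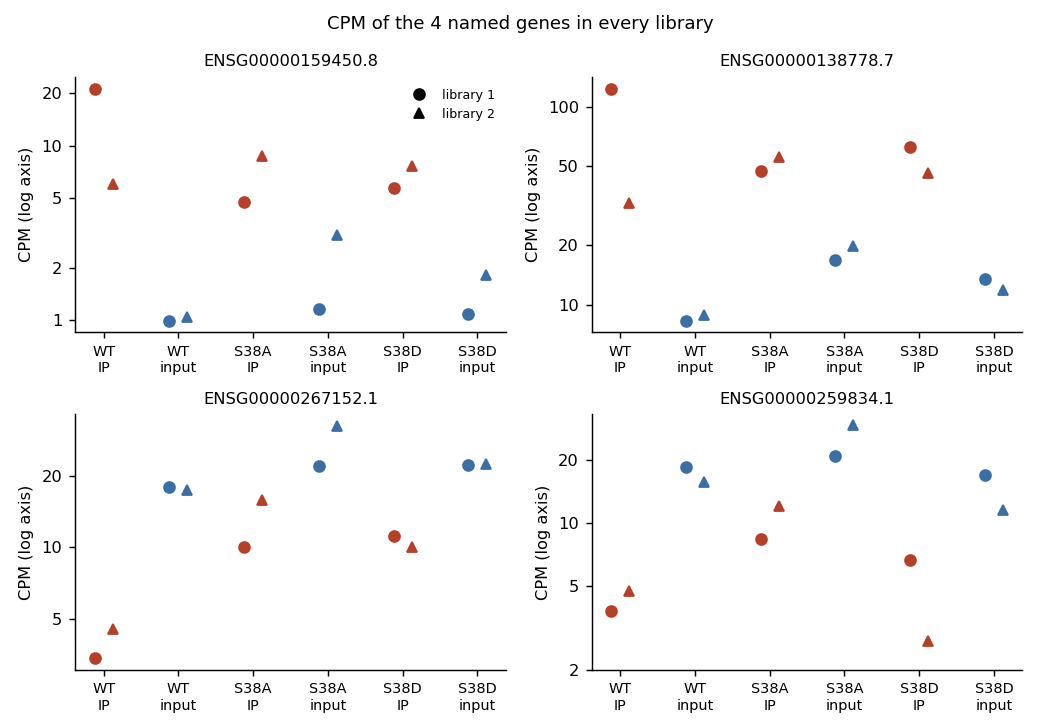
CPM (y axis, log scale) of the 4 named genes in every library of the series, grouped by line with IP (red) left of input (blue), circles for library 1 and triangles for library 2. In WT the IP points lie apart from the input points in all 4 panels, and the first WT IP library is the highest of all 12 for both genes that rose, at 21.3 and 124 CPM. All 4 genes were chosen for a WT change without overlap of IP and input.

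The 12 genes with the largest increases under the rule, of 955 that qualified, had log2 changes of 2.45 to 3.67 and mean levels of 5.48 to 343 CPM. Their log2 ratio was larger in pair 1 for 10 of 12, and the first WT IP library was the highest of the 12 libraries for 11 of them. In all 12, WT IP 1 lay above each of the 4 IP libraries of the S38A and S38D lines, while WT IP 2 lay within the range of those libraries for 6. These genes were chosen for their WT increase, so the high place of WT IP 1 is partly built into the choice. The share of all genes with WT IP 1 above those 4 libraries was not counted. The 12 largest decreases, of 886 that qualified, had log2 changes of -2.11 to -1.56 at 6.30 to 53.7 CPM, and 11 of them were further down in pair 1. The 4 most abundant genes called higher had 2478 to 3110 CPM, among the 7 most abundant of all genes, with log2 changes of 0.83 to 2.31. The 4 most abundant genes called lower had 270.3 to 340.2 CPM and log2 changes of -0.89 to -0.50.

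To see whether the strongest genes of one pair were also strong in the other, 50 genes were chosen in 1 pair and read in the rest. The choice was made among 13112 genes with at least 5 CPM in the S38A and S38D inputs, which are no part of the WT values. The 50 genes most increased in pair 1 had a median log2 ratio of 2.67 there. Read in pair 2 the median was 1.14, all 50 had a positive ratio, and 30 were at least 2-fold higher, against 3.82% of all genes in that pair. The 50 genes most increased in pair 2 had a median of 1.84 there and 0.73 in pair 1, where 46 had a positive ratio and 17 were at least 2-fold higher, against 7.86% of all genes. Among decreases, the 50 genes lowest in pair 1 had a median of -2.19 there and -0.91 in pair 2, where 46 had a negative ratio and 23 were at least 2-fold lower, against 4.74% of all genes. The 50 genes lowest in pair 2 had a median of -1.65 there and -1.05 in pair 1, where 48 had a negative ratio and 27 were at least 2-fold lower, against 9.47% of all genes. The value in the choosing pair was used for the choice and carries no test. The shares of all genes are over 16920 genes, including those of low counts that were not eligible. Of 11693 genes with a mean of at least 10 CPM, 843 were at least 2-fold higher in pair 1 and 588 lower. In pair 2 the numbers were 271 and 261. Ratios of the same sign in both pairs were found for 69.2% of all genes.

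The same genes were read in the pairs of the other lines, which share no library with WT. The genes most increased in WT pair 1 had median log2 ratios of 0.90 and 0.66 in the S38A pairs and 1.35 and 1.42 in the S38D pairs. The genes most increased in WT pair 2 had medians of 1.44 and 0.74 in the S38A pairs and 1.03 and 1.04 in the S38D pairs. Over all 16920 genes the log2 ratios of the WT pairs correlated at 0.47 with each other. WT pair 1 correlated with the S38A pairs at 0.46 and 0.40 and with the S38D pairs at 0.54 and 0.55. WT pair 2 correlated with the S38A pairs at 0.63 and 0.60 and with the S38D pairs at 0.56 and 0.57. WT pair 2 was thus closer to each of the 4 pairs of the other lines than to WT pair 1. These values are across genes, which are not independent replicates, and all ratios share 1 scaling and the same genes at low and high counts.

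**Figure D4:**
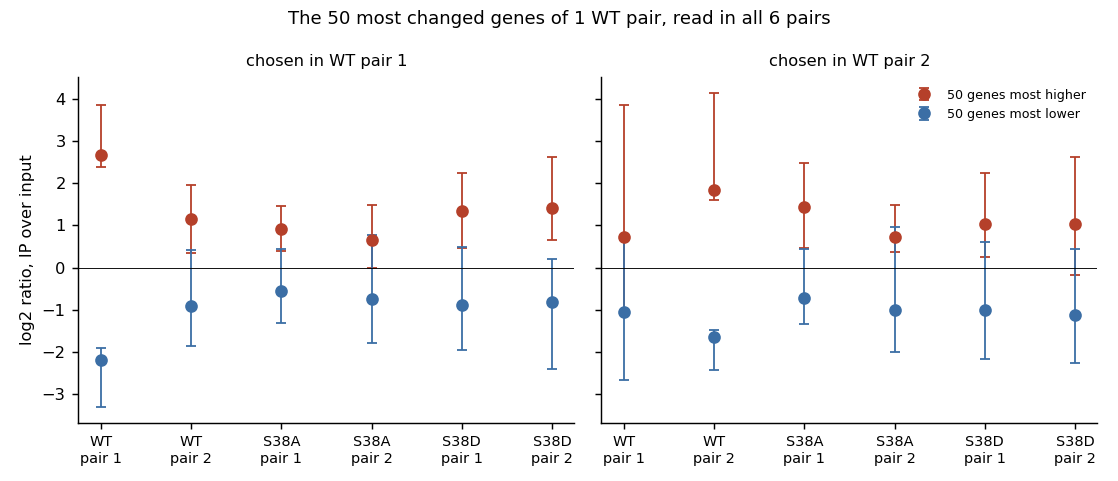
Log2 ratio of IP over input (y axis) in each of the 6 pairs (x axis) for the 50 most increased genes (red) and the 50 most decreased genes (blue) of WT pair 1 (left panel) and WT pair 2 (right panel); points are medians and bars run from the lowest to the highest of the 50 genes. The values are furthest from 0 in the pair that chose them, with medians of 2.67 and 1.84 for increases, and the medians keep their sign in all other pairs.

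The change was also described by abundance. Genes were divided into quartiles by their level in the S38A and S38D inputs, so that noise in the WT values does not enter the grouping. In the most abundant quartile (median 109 CPM) 538 of 4230 genes were called higher in WT IP and 353 lower, which is 12.7% and 8.35%. In the quartile next to it (median 47.5 CPM) 265 were higher and 395 lower. In the third quartile down (median 16.0 CPM) the numbers were 114 and 143, and in the least abundant (median 2.14 CPM) 59 and 36. Calls are easier to make at high counts, so numbers are not comparable between quartiles, while medians are less affected. From least to most abundant, the median log2 ratio was -0.16, -0.19, -0.09 and 0.14 in pair 1, and -0.04, -0.09, -0.09 and 0.03 in pair 2. The most abundant quartile held 74.3% and 73.1% of gene counts in IP, against 68.9% and 70.0% in input. With total counts in place of the scaling used here, its median log2 change was -0.16 and 267 of its genes were higher and 898 lower. The sign of its shift therefore depends on scaling. It lay above the median of all genes in both settings (by total counts -0.30). A change of scaling moves all genes by nearly the same amount, so the second setting is no separate check of that.

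The gap between the pairs varied with abundance and direction. In the most abundant quartile 428 genes were at least 2-fold higher in pair 1 and 65 in pair 2, and in the least abundant 468 and 369. For decreases the numbers were 114 and 51 in the most abundant quartile, 251 and 111 in the next, 402 and 204 in the third down, and 836 and 436 in the least abundant. The correlation between the pairs' log2 ratios was 0.74 in the most abundant quartile, 0.65 and 0.52 in those between, and 0.30 in the least abundant.

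**Figure D5:**
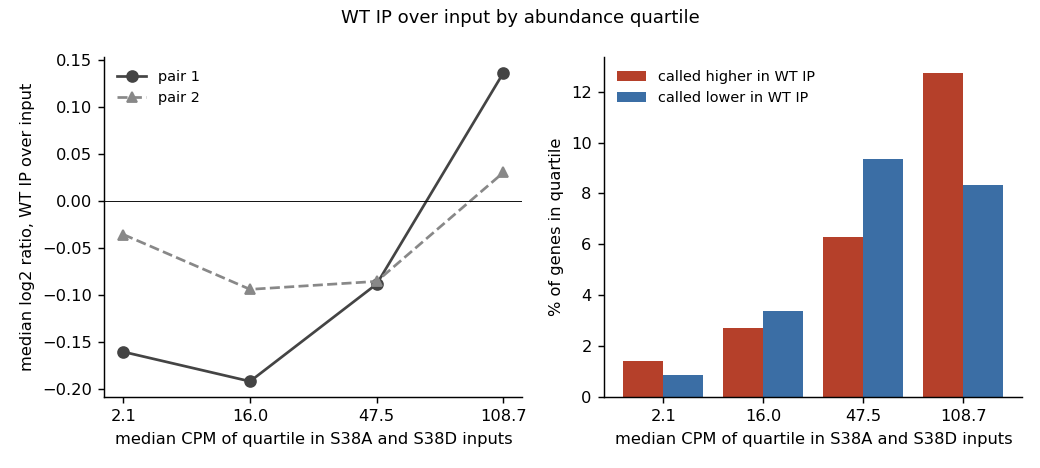
WT IP over input by quartile of abundance, each quartile labelled with its median CPM in the S38A and S38D inputs; the left panel shows the median log2 ratio in pair 1 (circles) and pair 2 (triangles), and the right panel the percentage of genes called higher (red) or lower (blue) in WT IP. The most abundant quartile has the highest median in both pairs, 0.14 and 0.03, though with total counts its median log2 change was -0.16; calls are easier to make at high counts, so the bars do not rank the quartiles.

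Cell cycle genes were examined as groups because the series concerns mitosis. Lists of G1, S and G2M markers, genes whose mRNA is relatively high in 1 phase, were taken by Ensembl identifier from a published marker set supplied with the scran package. Of 239 G1 markers tested, 34 were called higher in WT IP and 14 lower. Of 251 S markers, 29 were higher and 14 lower, and of 208 G2M markers, 25 were higher and 10 lower. The shares called higher were 14.2%, 11.6% and 12.0%, beside 5.77% of all genes, and the shares called lower were 5.86%, 5.58% and 4.81%, beside 5.48%. Members were more abundant than genes at large, with median levels of 70.7, 68.3 and 70.6 CPM against 29.2 CPM, and 46.9%, 50.6% and 45.2% of them lay in the most abundant quartile, of which 12.7% was called higher. The part of abundance in these counts was not tested. With total counts the G1, S and G2M lists had 16, 18 and 14 members higher and 41, 48 and 33 lower, so the direction of the called members depends on scaling. Relative to all genes, the list medians were 0.14, 0.12 and 0.10 higher. With total counts they were 0.14, 0.12 and 0.10 higher. A change of scaling moves all genes by nearly the same amount, so this agreement is built in and is no check.

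The markers also split by pair. Among G1 markers 28 were at least 2-fold higher in pair 1 and 1 in pair 2. Among G2M markers the numbers were 30 and 6, and among S markers 24 and 8. These are 11.7%, 14.4% and 9.56% of the lists in pair 1, beside 7.86% of all genes, and 0.418%, 2.88% and 3.19% in pair 2, beside 3.82%. At least 2-fold lower were 8, 5 and 2 G1, S and G2M markers in pair 1 (3.35%, 1.99% and 0.962%), beside 9.47% of all genes, and 4, 4 and 2 in pair 2 (1.67%, 1.59% and 0.962%), beside 4.74%. In the most abundant quartile, which holds 45.2% to 50.6% of the lists, 10.1% of genes were at least 2-fold higher in pair 1 and 1.54% in pair 2, and 2.70% and 1.21% were at least 2-fold lower. The median log2 ratio of the G2M list was 0.25 in pair 1 and -0.11 in pair 2, opposite in sign, against medians over all genes of -0.07 and -0.05. For G1 markers it was 0.14 and 0.07, and for S markers 0.09 and -0.02. As shares of gene counts, G2M markers took 1.93% and 1.57% in IP, against 1.65% and 1.70% in input, so IP 1 lay above both inputs and IP 2 below both. The median of the G2M list relative to all genes was 0.10 over both pairs, 0.03 without WT IP 1 and 0.28 without WT IP 2. ENSG00000138778.7, with the largest increase of the G2M list, was among the 5 G2M markers at least 2-fold higher in both pairs.

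Whether IP over input in WT differed from that in the other lines was tested by the WT change minus the mean of the S38A and S38D changes in the same fit. No gene passed: edgeR called 0 of 16920 genes (0%), with 274 (1.62%) at unadjusted p under 0.05, and DESeq2 and voom also called 0. With the fraction as a replicate block edgeR again called 0, with 849 genes (5.02%) at unadjusted p under 0.05. A share of about 0.05 is expected there with no difference at all, so neither count shows a clear excess. Within the other lines, the same fit called 0 genes higher and 0 lower in S38A IP versus its input, and 530 and 294 in S38D. Over all genes tested the median log2 change was 0.0005 in S38A and -0.05 in S38D. Of the 976 genes higher in WT IP, 971 had a positive log2 change in S38A and 974 in S38D. Of the 927 lower genes 921 and 924 had a negative one. These are signs of change, not calls in those lines. The changes were larger in WT than the mean of the other lines for 887 of the higher and 895 of the lower genes, but these genes were chosen for their WT change. Their median log2 change was 0.49 in S38A and 0.80 in S38D for genes higher in WT, and -0.56 and -0.65 for genes lower in WT.

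For the named genes the difference between WT and the other lines was as follows. ENSG00000159450.8 changed by 1.75 more on the log2 scale in WT than in the mean of the other lines (SE 0.80), where its own changes were 1.67 in S38A and 2.18 in S38D (edgeR adjusted p = 0.223 and 0.0704, neither passing). ENSG00000138778.7 changed by 1.35 more in WT (SE 0.54), with 1.49 in S38A and 2.11 in S38D (edgeR adjusted p = 0.162 and 0.0276). ENSG00000267152.1 differed by -1.04 (SE 0.38), with -1.06 in S38A and -1.07 in S38D (edgeR adjusted p = 0.141 and 0.0499). ENSG00000259834.1 differed by -0.54 (SE 0.48), with -1.29 in S38A and -1.57 in S38D (edgeR adjusted p = 0.148 and 0.0409). None of these 4 differences passed (edgeR adjusted p = 1 each), but some did in other settings. ENSG00000138778.7 passed with no filter on low counts (edgeR adjusted p = 0.0365). With the replicate block and no second WT fraction, WT rests on pair 1, so the fit holds no spread between WT replicates. ENSG00000159450.8, ENSG00000138778.7 and ENSG00000267152.1 passed there, with differences of 2.46, 2.10 and -1.32, and ENSG00000259834.1 had -0.85. With no first WT fraction the differences were 0.58, 0.07, -0.86 and -0.28 in the same order, which did not pass. For the 2 genes that rose the size depended on the WT IP library: without WT IP 1 the differences were 0.68 and 0.17, and without WT IP 2 they were 2.43 and 2.04. For the 2 that fell they were -0.84 and -0.37 without WT IP 1, and -1.30 and -0.74 without WT IP 2. Without WT IP 2 edgeR called 244 genes, 239 of them higher in WT relative to the other lines, ENSG00000138778.7 among them (adjusted p = 0.00699). Without WT IP 1 it called 0.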

How the data were processed

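The authors deposited raw read counts, 1 table for each library, listing 57820 Ensembl gene identifiers besides 92 spike-in (ERCC) sequences. The submitters' processing notes name hg19, DESeq2, STAR (2.4.2a) and bcl2fastq (2.16.0.10). Neither the read counter and its strand setting nor the annotation release is given in the sources used here. Genes that overlap, lie antisense or have near-identical copies therefore have uncertain values. The reference table lists 59792 genes, 0 of them with an Ensembl identifier, so the gene lists prepared by symbol, and protein features, were not analysed here.

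The fit used edgeR 4.0.16 under R 4.3.3, with filterByExpr with a minimum count of 10, TMM scaling without ERCC rows, and glmQLFit on 12 libraries in 6 groups, with the contrasts WT IP minus WT input and WT minus the mean of S38A and S38D in IP over input. Calls used Benjamini-Hochberg adjusted p under 0.05 over all genes. The standard error is the log2 change divided by the square root of F. CPM are TMM-scaled and pair ratios use log2 CPM with a prior count of 2. The rule for named genes was: called, mean of at least 5 CPM over the WT libraries, no overlap of IP and input, the 12 largest changes each way, and the 4 most abundant called genes each way; without symbols, at most 2 identifiers each way are printed and the rest are summarised. Cell cycle lists came from scran 1.30.0, keeping genes in at least 20 marker pairs of a phase, with a share of at least 0.8 of those pairs as the higher one, and in 1 phase. Members and lists were chosen with earlier results of these data known. Whether replicates were separate cultures is not stated, and p-values then reflect only how far these libraries spread, which may be technical.

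Per the labels' protocols, input and IP come from the same fraction, and libraries were paired by their number. Same-numbered libraries deviated together from their group means (correlation across genes 0.28 for WT, 0.64 for S38A, 0.54 for S38D). With so few libraries in a group each line offers only a single sign, so these values do not test the pairing. The main fit does not use this pairing, and a replicate block for the fraction was run as an alternative. Replicates had chi-square values of 5.08 to 14.9 per degree of freedom, so no pair agreed within sampling noise. Other alternatives were RLE factors, total counts, DESeq2 1.42.0, limma 3.58.1 voom with sample quality weights, other filters, the WT libraries alone, thinned counts and omission of each library. The block without 1 WT fraction and the cell cycle lists were added after seeing the data. The fits were also run on counts simulated with the same spread for all libraries and no fraction effect. These data differ in both, so no conclusion is drawn from that run.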

Additional observations from a re-analysis of the deposited data

Results flagged for a closer look

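Spike-in RNA was used in no gene comparison and stood above its level in the inputs in both WT pairs. It took 5.43% of counts in WT IP 1 and 2.57% in WT IP 2 (exact Clopper-Pearson 95% intervals 5.41% to 5.45% and 2.56% to 2.58%), against 0.116% and 0.484% in WT inputs 1 and 2 (0.114% to 0.119% and 0.479% to 0.489%). The intervals cover counting error only. The IP share was 46.7 times the input share in pair 1 and 5.31 times in pair 2. Of the 2 WT pairs, the one with the larger ratio of spike-in shares had the larger changes of genes. The same order held within the S38A and S38D lines, but not across lines, as the values below show. Spike-in took 2.15% and 1.44% in S38A IP and 3.79% and 5.18% in S38D IP. It took 0.342% and 0.211% in S38A input and 0.350% and 0.330% in S38D input. Among 11693 genes with at least 10 CPM, the SD of log2 ratios was 0.675 and 0.504 in the WT pairs. It was 0.355 and 0.402 in S38A and 0.435 and 0.503 in S38D. In both of these lines pair 2 had the larger ratio of spike-in shares and the larger SD. WT pair 2 had the lowest ratio of all pairs, yet its SD was above those of both S38A pairs. The part of yield in these changes was not tested.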

How the results depend on the processing

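In WT IP versus input, the 1903 genes called became 2928 with total counts (16.5% of them higher, against 51.3%), 597 with voom (72.5% higher), 4818 with the replicate block, 0 with the 4 WT libraries alone (3678 at unadjusted p under 0.05) and 602 with those 4 libraries and the replicate block. With the replicate block and no first WT fraction the count was 5087, and with no second WT fraction 5891; here WT is a single pair assumed to vary like the other lines. With 1 WT library left out the count was 0 to 2869. It stayed within 1.5 times with RLE factors, DESeq2, no filter, mean CPM of at least 10 and thinned counts. Of the single-gene values of this comparison, 50 kept their side of the threshold, 13 no longer passed and 0 reversed, and the replicate block changed none of these 4 calls. For WT versus the other lines, 78 single-gene values stayed on their side of the threshold and 5 newly passed, and the count of 0 became 20 with no filter, 34 and 2507 with the replicate block and no first or no second WT fraction, and, leaving out single libraries in turn, 0 to 244. The G2M list median relative to all genes was 0.10 and became -0.06 with the block and no first WT fraction, and 0.33 with no second. With no filter the G2M median was 0.00495, and the G1 and S medians, 0.14 and 0.12, were 0.05 and 0.02, and the G1 median was 0.07 without WT input 1. The cause was not tested. The protein features and symbol lists that were planned were not run for want of names.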

Other observations

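At the lower end of detection, 3 genes had 0 counts in both WT IP libraries and 10 or more in each WT input. With 3 counts per library as the floor they were at least 1.64-fold to 2.03-fold lower in IP, and in the S38A and S38D IP libraries they had between 0 and 9 counts. In the opposite direction, 0 genes had 0 counts in both WT inputs and 10 or more in each WT IP library. Of the 175 genes at least 2-fold higher in both pairs 119 were called, and of the 351 at least 2-fold lower 198 were. Over all genes 5.77% were called higher and 5.48% lower. Both sets were chosen on the same libraries as the calls, so high shares are largely built in. The median levels of the 2 sets were 9.54 and 5.49 CPM, below the 29.2 CPM of all genes tested.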
